A study of Mus musculus with 10 samples.

Results

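The mitochondrial solute carriers of the Slc25 family were the 47 genes of the count table, of 56832 in all, whose symbol is Slc25a followed by a number, and 35 of them had enough counts to be tested. Transcripts were counted in cardiomyocytes from Sprr1a-GFP reporter mice, in which a green fluorescent protein bears the name of Sprr1a, and all 10 library titles carry the tag Hetz. The mice had a myocardial infarction at 12 weeks of age, and 5 days later their hearts were perfused with enzyme and the freed cells were sorted by flow cytometry. GFP+ cells, called border zone cardiomyocytes in the labels, were compared with GFP− cells of the same heart, called remote zone cardiomyocytes. There was 1 GFP+ and 1 GFP− library from each of 5 mice, so both groups share the reporter, the infarct and the day, and no uninjured heart was used here. How GFP is tied to Sprr1a is not given in the sources used here. The titles of the GFP+ libraries name a DAPI-negative and a DAPI-positive sort together, and those of the GFP− libraries name a DAPI-negative sort alone. DAPI enters cells whose membrane is open, so this feature of the sort and the GFP group cannot be told apart. By identifier the mice fall into the 17C series, made up of 17C1 and 17C2, and the 21A series, made up of 21A4, 21A5 and 21A7, whose titles are worded differently, and values are given for each series beside the pooled ones.

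Slc25 proteins sit mostly in the inner mitochondrial membrane, where they exchange metabolites between the matrix and the rest of the cell. In the heart, ADP/ATP carriers bring ADP in and send ATP out, the phosphate carrier brings in the phosphate that ATP synthase joins to ADP, and the carnitine/acylcarnitine carrier brings in fatty acyl groups for oxidation. The oxoglutarate/malate carrier and the aspartate/glutamate carriers form the malate-aspartate shuttle, which moves the electrons of cytosolic NADH into mitochondria, and other carriers supply amino acids, iron and cofactors.

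Sprr1a, which names the reporter, had 1452 to 6903 counts in GFP+ and 10 to 406 counts in GFP− libraries. Total counts were 12244373 to 38879965 per library, and all Slc25 carriers together had 7604 to 38041 counts in GFP+ and 26658 to 102855 counts in GFP− libraries. Mitochondrially encoded genes took 35.7% to 91.2% of the counts in GFP+ and 9.20% to 61.9% in GFP− libraries, the highest and the lowest share both in mouse 21A7. Counts outside these genes were 3417972 (GFP+ library of 21A7) to 16918067 (GFP− library of 21A4). The GFP+ library of 21A7 thus had the highest total and the fewest counts outside mitochondrially encoded genes. All 12 cardiomyocyte markers checked (among them Tnnt2, Myh6 and Ttn) were detected in every library, with a summed level of 12142 to 46980 CPM in GFP+ and 4590 to 55126 CPM in GFP− libraries, where CPM is the count scaled to a common library size with TMM factors. The 8 fibroblast markers summed to 264 to 5123 CPM in GFP+ and 130.3 to 12064 CPM in GFP− libraries. In the library labelled GFP− of 21A7 they stood at 12064 CPM against 4590 CPM for the cardiomyocyte markers, so values without this mouse are given for several carriers. The log2 difference of the summed cardiomyocyte markers, GFP+ minus GFP−, was −1.08 and −0.91 in 17C1 and 17C2, and 0.36, 1.04 and 1.40 in 21A4, 21A5 and 21A7. For the fibroblast markers it was 1.02, 0.15, −1.67, −2.62 and −1.24 in the same mice. For 5 mesothelial markers it was 6.90, 3.58, 1.71, 1.83 and 1.11, at 79.5 to 312 CPM in GFP+ and 0.718 to 145 CPM in GFP− libraries. These were thus higher in the GFP+ library of every mouse, though 0 of the 5 genes passed, and their part in the carrier values was not tested. The covariate for markers of other cell types used below does not include them. In such bulk RNA, fewer cells of a type and less RNA per cell cannot be told apart.

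Per kilobase of exon, the ADP/ATP carrier Slc25a4 was the most abundant carrier, at 421 ± 139.8 CPM per kb in GFP+ and 764 ± 605 CPM per kb in GFP− libraries (SD, n = 5 each). Slc25a5, the ADP/ATP carrier of most other tissues, came next with 110.5 ± 56.0 in GFP+ and 65.1 ± 38.3 CPM per kb in GFP− libraries. The phosphate carrier Slc25a3 followed with 28.3 ± 8.65 in GFP+ and 39.5 ± 26.7 CPM per kb in GFP− libraries. Slc25a11, the oxoglutarate/malate carrier, stood at 26.7 ± 6.81 in GFP+ and 36.3 ± 23.3 CPM per kb in GFP− libraries, which does not differ from Slc25a3 beyond the spread. Slc25a39, which carries glutathione, had 15.8 ± 4.68 in GFP+ and 13.9 ± 7.10 CPM per kb in GFP− libraries. At the low end 5 carriers were at 0 in every library, namely Slc25a21, Slc25a31, Slc25a41, Slc25a48 and Slc25a54. A further 7 had 29 to 328 counts over all libraries together and were not tested (Slc25a2, Slc25a18, Slc25a27, Slc25a43, Slc25a45, Slc25a47 and Slc25a53).

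The 4 promoters shown here belong to the ADP/ATP pair, which is compared below within each library, and to Slc25a34 and Slc25a20, carriers with lower GFP+ levels in the 17C mice. Each is the 250 bases before the annotated start, read along the gene's strand, from RefSeq on GRCm38.p6. Capitals mark CCAAT or its reverse ATTGG, the nuclear receptor half-site AAGGTCA or its reverse TGACCTT, and the ETS-type site CCGGAAGT or its reverse ACTTCCGG, all searched on both strands. The window of Slc25a4 lies at chr8:46211063-46211312 on the minus strand, that of Slc25a5 at chrX:36795347-36795596 on the plus strand, that of Slc25a34 at chr4:141623835-141624084 on the minus strand and that of Slc25a20 at chr9:108661886-108662135 on the plus strand.
Slc25a4: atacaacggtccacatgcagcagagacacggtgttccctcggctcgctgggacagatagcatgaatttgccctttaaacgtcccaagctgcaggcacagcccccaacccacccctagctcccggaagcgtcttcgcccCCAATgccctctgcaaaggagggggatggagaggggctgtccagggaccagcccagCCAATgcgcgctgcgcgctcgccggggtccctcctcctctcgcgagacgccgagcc
Slc25a5: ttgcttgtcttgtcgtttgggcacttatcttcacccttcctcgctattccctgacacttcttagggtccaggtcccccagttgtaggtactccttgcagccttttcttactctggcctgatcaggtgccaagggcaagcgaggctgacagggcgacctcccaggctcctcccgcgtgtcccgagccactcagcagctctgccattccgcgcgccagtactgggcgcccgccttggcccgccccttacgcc
Slc25a34: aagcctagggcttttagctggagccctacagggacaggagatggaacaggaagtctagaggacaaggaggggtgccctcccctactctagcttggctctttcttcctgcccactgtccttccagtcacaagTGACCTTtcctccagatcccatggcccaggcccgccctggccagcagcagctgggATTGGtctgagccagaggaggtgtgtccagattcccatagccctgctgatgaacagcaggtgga
Slc25a20: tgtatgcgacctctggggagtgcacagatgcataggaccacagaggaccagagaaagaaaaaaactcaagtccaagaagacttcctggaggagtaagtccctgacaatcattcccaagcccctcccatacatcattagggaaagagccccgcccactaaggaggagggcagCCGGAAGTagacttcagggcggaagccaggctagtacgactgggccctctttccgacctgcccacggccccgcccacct
The window of Slc25a4 held CCAAT at 112 and at 56 bases before the start, and that of Slc25a5 held none of these motifs. Slc25a34 held the half-site in reverse at 119 bases and CCAAT in reverse at 64 bases before the start. Slc25a20 held the ETS-type site at 79 bases before the start. Of 36 members with a window in the table, 18 (50.0%) held CCAAT, against 37.5% of 27025 genes. The half-site was found in 1 member (2.78%, against 4.70% of all genes) and the ETS-type site in 1 member (2.78%, against 3.23%), Slc25a34 and Slc25a20. The motifs do not overlap each other in these windows, and a match in such a window is a description of its letters.

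Over all 5 mice, with each mouse as a block, 0 of 35 carriers passed an adjusted p of 0.05 in edgeR's quasi-likelihood test, where 0.858% of all 12115 tested genes did. At an unadjusted p under 0.05 there were 6 carriers of 35, against 15.3% of all genes, and DESeq2 called 4 carriers (7.39% of all genes) and limma voom 3 (9.60%), while the fit without the mouse as a block called 0 (0.0825%). Log2 fold changes were above 0 for 18 carriers and below 0 for 17, with a median of 0.027 against −0.038 for all tested genes. Slc25a22, which carries glutamate with a proton into the matrix, came nearest to the threshold and was lower in GFP+ cells of every mouse. Slc25a5, Slc25a23, Slc25a29, Slc25a34 and Slc25a51 were the other carriers at an unadjusted p under 0.05.

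**Figure D1:**
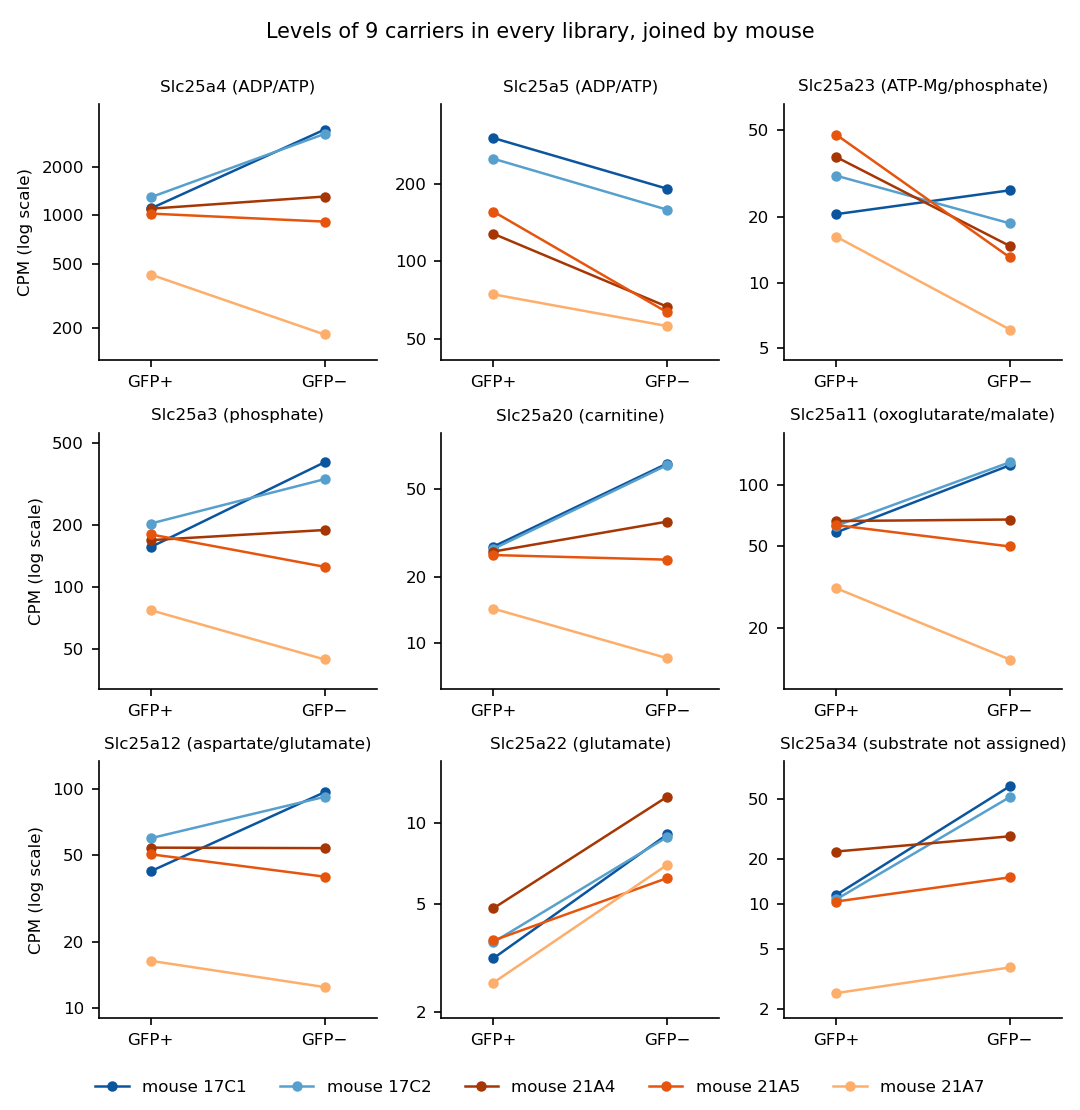
CPM of 9 carriers on a log axis in each of 10 libraries, GFP+ left and GFP− right, with a line joining the libraries of each mouse (blue, 17C mice; orange and brown, 21A mice). For Slc25a22 all 5 GFP+ libraries, at 2.56 to 4.84 CPM, lie below all 5 GFP− libraries, at 6.26 to 12.6 CPM, while the lines of Slc25a4, Slc25a3, Slc25a11 and Slc25a20 climb to the right in the 17C mice and fall in 21A7.

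Among nucleotide carriers, Slc25a4 had 1104 and 1296 CPM in the GFP+ libraries of 17C1 and 17C2, against 3392 and 3192 CPM in their GFP− libraries. In 21A4, 21A5 and 21A7 it had 1100.2, 1026 and 431 CPM in GFP+ and 1308, 916 and 184 CPM in GFP− libraries. GFP+ levels were thus close to one another in 4 mice, and the spread lay mainly in the GFP− libraries, which overlapped with the GFP+ ones. The log2 fold change over 5 mice was −0.36 ± 0.49 (SE; edgeR adjusted p = 0.784), −0.76 without 21A7 and −0.95 with a covariate for markers of other cell types (edgeR adjusted p = 0.475).

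Slc25a5 was higher in the GFP+ library of every mouse, although it did not pass. It had 301, 250.1, 128, 156 and 74.4 CPM in the GFP+ libraries of 17C1, 17C2, 21A4, 21A5 and 21A7, against 191, 159, 66.6, 63.3 and 56.0 CPM in their GFP− libraries. The groups overlapped because the 17C mice stood above the 21A mice in both. The log2 fold change was 0.79 ± 0.24 (edgeR adjusted p = 0.174), and DESeq2 (adjusted p = 0.0108) and limma voom (adjusted p = 0.0232) called it. Slc25a5 was the 1 carrier higher in all 5 mice, where 9.14% of all tested genes were. It has processed pseudogene copies, and how reads that fit several places were counted is not given in the sources used here, so its level is uncertain.

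The ratio of the ADP/ATP carriers within a library does not depend on scaling between libraries. Per 100 Slc25a4 reads there were 27.3, 19.3, 11.6, 15.2 and 17.3 Slc25a5 reads in the GFP+ libraries of 17C1, 17C2, 21A4, 21A5 and 21A7, against 5.64, 4.97, 5.09, 6.92 and 30.5 in their GFP− libraries. The GFP− library of 21A7, the one with more fibroblast than cardiomyocyte marker RNA, was the only one above the GFP+ library of its mouse, and the other GFP− libraries lay below every GFP+ library. The log2 ratio was higher by 1.15 ± 1.2 (mean and SD of 5 mice), in 4 of 5 mice, with an exact two-sided sign-flip p of 0.125 (0.5 after Benjamini-Hochberg adjustment over 8 ratios). The smallest p that 5 pairs allow is 0.0625. The mean was 2.12 in the 17C mice and 0.50 in the 21A mice, and 1.64 without 21A7.

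**Figure D2:**
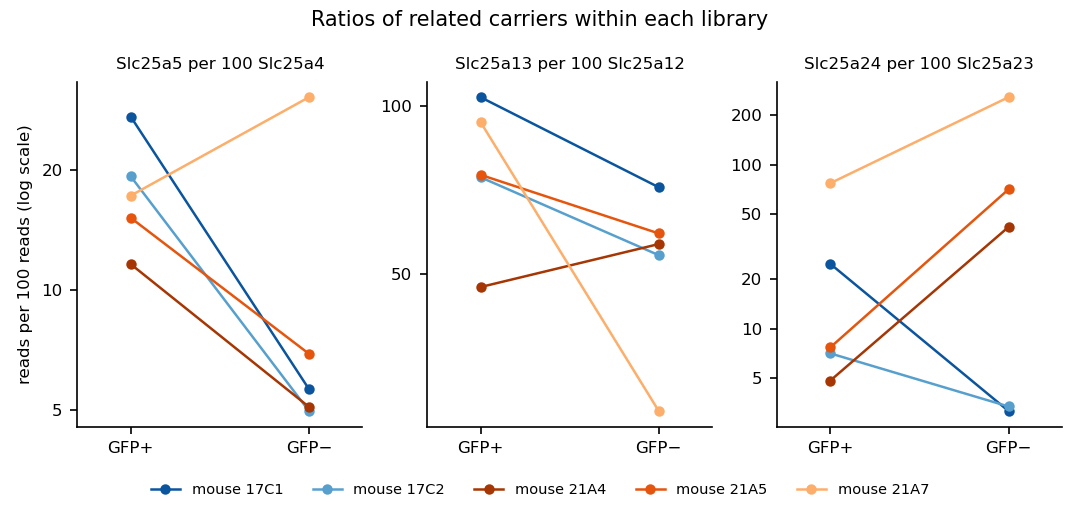
Reads of 1 carrier per 100 reads of a related carrier in each library, on log axes, GFP+ left and GFP− right, joined by mouse. Slc25a5 per 100 Slc25a4 was 11.6 to 27.3 in GFP+ libraries and 4.97 to 6.92 in GFP− libraries except that of 21A7 (30.5), and the lines of Slc25a24 per 100 Slc25a23 slope in opposite directions in the 17C and 21A mice.

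Slc25a23, a calcium-regulated carrier that exchanges ATP-Mg for phosphate, had 20.6 and 30.9 CPM in the GFP+ libraries of 17C1 and 17C2, against 26.4 and 18.7 CPM in their GFP− libraries. In 21A4, 21A5 and 21A7 it had 37.6, 47.6 and 16.2 CPM in GFP+ and 14.7, 13.0 and 6.09 CPM in GFP− libraries. It was higher in 4 of 5 mice, with groups that overlapped and a log2 fold change of 1.02 ± 0.33 (edgeR adjusted p = 0.200). Its value was 1.196 with limma voom, which called it (adjusted p = 0.01002), and 0.25 in edgeR with a covariate for markers of other cell types (adjusted p = 0.715). Its paralog Slc25a24 had 5.11 and 2.19 CPM in GFP+ against 0.837 and 0.630 CPM in GFP− libraries of the 17C mice. In 21A4, 21A5 and 21A7 it had 1.82, 3.67 and 12.5 CPM in GFP+ against 6.13, 9.20 and 15.6 CPM in GFP− libraries. The Slc25a24 levels were thus higher in GFP+ cells of both 17C mice and lower in those of all 3 21A mice. These signs were opposite to those of the cardiomyocyte markers and the same as those of the fibroblast markers. The part of the cells' make-up in these values was not tested, and Slc25a24 had only 14 and 8 counts in the GFP− libraries of 17C1 and 17C2. Exons of Slc25a23 overlap those of Gm17168 on the other strand. The library kit does not mark strand, so reads of both genes there cannot be told apart by strand. The strand setting of the counting is not given in the sources used here. Slc25a25, the third of these calcium-regulated carriers, and the pyrimidine nucleotide carriers Slc25a33 and Slc25a36 had log2 fold changes of 0.38, 0.36 and 0.23 and did not pass.

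The phosphate carrier Slc25a3 followed Slc25a4. It had 156 and 203 CPM in the GFP+ libraries of 17C1 and 17C2 against 404 and 334 CPM in their GFP− libraries, and 169, 180.0 and 77.0 CPM in GFP+ against 189, 125 and 44.4 CPM in GFP− libraries of 21A4, 21A5 and 21A7. GFP+ levels were lower in 3 mice and higher in 2, and the log2 fold change was −0.18 ± 0.36 (edgeR adjusted p = 0.857). Without 21A7 it was −0.43, and the covariate for other cell types gave −0.77 (edgeR adjusted p = 0.384). Per 100 Slc25a4 reads, Slc25a3 had 14.2 to 17.9 reads in GFP+ and 10.5 to 24.2 reads in GFP− libraries, a mean log2 difference of 0.17 ± 0.38 (exact sign-flip p = 0.375, adjusted 0.6).

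Slc25a20, the carnitine/acylcarnitine carrier, had 27.4, 26.8, 26.0, 25.1 and 14.3 CPM in the GFP+ libraries of 17C1, 17C2, 21A4, 21A5 and 21A7, against 65.4, 64.3, 35.6, 23.9 and 8.51 CPM in their GFP− libraries. GFP+ libraries other than that of 21A7 lay close together, whereas GFP− libraries ranged widely and overlapped with them. A log2 fold change of −0.44 ± 0.33 did not pass (edgeR adjusted p = 0.584), and it was −0.73 without 21A7. Against the phosphate carrier of the same library it was lower in GFP+ cells of 4 of 5 mice, by a mean log2 difference of −0.24 ± 0.28 (exact sign-flip p = 0.188, adjusted 0.5). Of 5 tested partner genes of the carnitine shuttle, 0 passed over 5 mice and all 5 had log2 fold changes below 0. They ran from −1.0 (Acsl1, which makes acyl-CoA) to −0.50 (Slc22a5, which takes up carnitine). Cpt1a, which joins acyl groups to carnitine, was lower in 5 of 5 mice (log2 fold change −0.86 ± 0.24, edgeR adjusted p = 0.154).

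Among carboxylate carriers, Slc25a11 had 58.5, 63.0, 66.5, 63.5 and 31.3 CPM in the GFP+ libraries of 17C1, 17C2, 21A4, 21A5 and 21A7, against 125, 129, 67.7, 50.0 and 14.0 CPM in their GFP− libraries. Its GFP+ libraries were near each other except in 21A7, and the log2 fold change was −0.13 ± 0.36 (edgeR adjusted p = 0.899), and −0.45 without 21A7. Exons of Slc25a11 overlap those of Rnf167 on the other strand. The citrate carrier Slc25a1 had a log2 fold change of 0.69 ± 0.53 and the dicarboxylate carrier Slc25a10 one of −0.45 ± 0.55, and neither passed (edgeR adjusted p = 0.593 and 0.756).

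Slc25a22 had the smallest p of the amino acid carriers in the edgeR fit over all mice. It had 3.15, 3.62, 4.84, 3.67 and 2.56 CPM in the GFP+ libraries of 17C1, 17C2, 21A4, 21A5 and 21A7, against 9.09, 8.90, 12.6, 6.26 and 7.01 CPM in their GFP− libraries. Every GFP+ library lay below every GFP− library. Slc25a22 was the 1 of 35 tested carriers whose groups did not overlap, a share near the 2.45% of all tested genes (0.916% with GFP+ lower). The log2 fold change was −1.28 ± 0.28 (edgeR adjusted p = 0.0885), with −1.40 in the 17C mice and −1.17 in the 21A mice. DESeq2 (adjusted p = 0.00135) and limma voom (adjusted p = 0.0209) called it as lower, as did edgeR with no filter on low counts (adjusted p = 0.0415) or with a stricter one (adjusted p = 0.0423). Without any 1 mouse the log2 fold change stayed between −1.43 and −1.21 (edgeR adjusted p 0.106 to 0.362).

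Slc25a29, a carrier of basic amino acids, was also lower in GFP+ cells of all 5 mice, from very few reads. Its counts were 3, 3, 4, 12 and 0 in the GFP+ libraries of 17C1, 17C2, 21A4, 21A5 and 21A7, against 41, 40, 92, 39 and 17 in their GFP− libraries. The log2 fold change was −2.49 ± 0.82 (edgeR adjusted p = 0.205), a fitted value that leans on the prior count in a library at 0, and DESeq2 called it (adjusted p = 0.0274). Slc25a15, which carries ornithine, was lower in all 5 mice as well (log2 fold change −0.61 ± 0.34, edgeR adjusted p = 0.443). In all, 5 carriers were lower in every mouse (Slc25a15, Slc25a22, Slc25a29, Slc25a34 and Slc25a51), against 8.02% of all tested genes.

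The aspartate/glutamate carrier Slc25a12 had 42.2, 59.7, 54.1, 50.4 and 16.4 CPM in the GFP+ libraries of 17C1, 17C2, 21A4, 21A5 and 21A7, against 96.8, 92.3, 53.8, 39.8 and 12.5 CPM in their GFP− libraries. The log2 fold change was −0.21 ± 0.28 (edgeR adjusted p = 0.783), and −0.37 without 21A7. Its paralog Slc25a13 had 43.7, 44.5, 25.6, 37.9 and 15.4 CPM in GFP+ and 69.2, 49.8, 30.4, 23.5 and 3.54 CPM in GFP− libraries of the same mice, with a log2 fold change of 0.31 ± 0.39 (edgeR adjusted p = 0.772). Without 21A7 the Slc25a13 value was −0.10, a change of sign. Both carriers were lower in GFP+ cells of the 17C mice and overlapped between groups. Per 100 Slc25a12 reads there were 47.4 to 103.6 Slc25a13 reads in GFP+ and 28.4 to 71.5 in GFP− libraries. The log2 ratio was higher by 0.56 ± 0.72, in 4 of 5 mice (exact sign-flip p = 0.125, adjusted 0.5), and by 0.27 without 21A7. Slc25a44, which carries branched-chain amino acids, was near the same level in both groups, at 5.24 to 8.92 CPM in GFP+ and 5.83 to 8.49 CPM in GFP− libraries, with a log2 fold change of 0.03 ± 0.25 (edgeR adjusted p = 0.972).

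Neither iron carrier passed. Mitoferrin 2, Slc25a28, had 2.75 to 6.09 CPM in GFP+ and 4.0 to 7.30 CPM in GFP− libraries (log2 fold change −0.26 ± 0.31, edgeR adjusted p = 0.759). Mitoferrin 1, Slc25a37, had 1.27 to 4.48 CPM in GFP+ and 0.897 to 2.48 CPM in GFP− libraries (0.37 ± 0.52, edgeR adjusted p = 0.794). The ratio of Slc25a37 to Slc25a28 was higher in GFP+ cells of 3 of 5 mice, by a mean of 0.63 ± 0.99 on the log2 scale (exact sign-flip p = 0.312, adjusted 0.6). Among 18 tested genes of iron use and handling 0 passed. The 2 with the smallest p were Isca2, an iron-sulfur cluster assembly factor (log2 fold change 1.15 ± 0.31, edgeR adjusted p = 0.141), and Tfrc, the transferrin receptor (0.61 ± 0.19, edgeR adjusted p = 0.184), both higher in 5 of 5 mice.

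Of 9 tested cofactor carriers, Slc25a51, which brings NAD into mitochondria, had the smallest p. It had 15.3, 17.3, 10.8, 8.95 and 14.8 CPM in the GFP+ libraries of 17C1, 17C2, 21A4, 21A5 and 21A7, against 22.7, 18.4, 16.6, 16.5 and 20.7 CPM in their GFP− libraries. It was lower in every mouse, with 1 GFP+ library above the lowest GFP− libraries, and had a log2 fold change of −0.53 ± 0.21 (edgeR adjusted p = 0.281). The folate carrier Slc25a32 had a log2 fold change of −0.48 ± 0.35 (edgeR adjusted p = 0.573). The glutathione carriers Slc25a39 and Slc25a40 had log2 fold changes of 0.28 ± 0.22 and 0.56 ± 0.61, and neither passed. Among 6 glutathione genes 0 passed over 5 mice, and Gss, glutathione synthetase, had the smallest p (1.53 ± 0.36, edgeR adjusted p = 0.104). Gss passed as higher within the 17C mice (2.10 ± 0.54, edgeR adjusted p = 0.0105) and not within the 21A mice (1.17 ± 0.43, edgeR adjusted p = 0.130). Gpx4 passed as higher within the 21A mice (1.08 ± 0.23, edgeR adjusted p = 0.0244) and not within the 17C mice (−0.29 ± 0.26, edgeR adjusted p = 0.571). Its difference between the series passed (1.35 ± 0.34, edgeR adjusted p = 0.0429).

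Slc25a34, whose substrate is not assigned here, had 11.5, 10.8, 22.4, 10.4 and 2.56 CPM in the GFP+ libraries of 17C1, 17C2, 21A4, 21A5 and 21A7, against 61.1, 51.7, 28.3, 15.1 and 3.80 CPM in their GFP− libraries. It was lower in all 5 mice and the groups overlapped, with a log2 fold change of −1.22 ± 0.38 (edgeR adjusted p = 0.187), called by DESeq2 (adjusted p = 0.0310), and −2.07 with the covariate for other cell types (edgeR adjusted p = 0.0999). Slc25a35, its near relative, had 0 to 35 counts in GFP+ and 2 to 57 counts in GFP− libraries, and its exons overlap those of Rangrf on the other strand. The uncoupling-protein-like carriers Slc25a14 and Slc25a30 did not pass (log2 fold changes 0.38 ± 0.69 and −0.01 ± 0.40). Ucp3, an uncoupling protein of muscle in the same family under another symbol, averaged 4.69 ± 3.95 CPM in GFP+ and 21.01 ± 15.2 CPM in GFP− libraries (SD, n = 5 each), lower in 4 of 5 mice, with a log2 fold change of −2.07 ± 0.77 (edgeR adjusted p = 0.258). Ucp3 passed as lower within the 17C mice, a fit of 2 mice (−4.01 ± 0.46, edgeR adjusted p = 2.34e-06). It did not pass within the 21A mice (−0.77 ± 0.56, edgeR adjusted p = 0.447), and the difference between the series did not pass (3.24 ± 0.90, edgeR adjusted p = 0.0572).

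**Figure D3:**
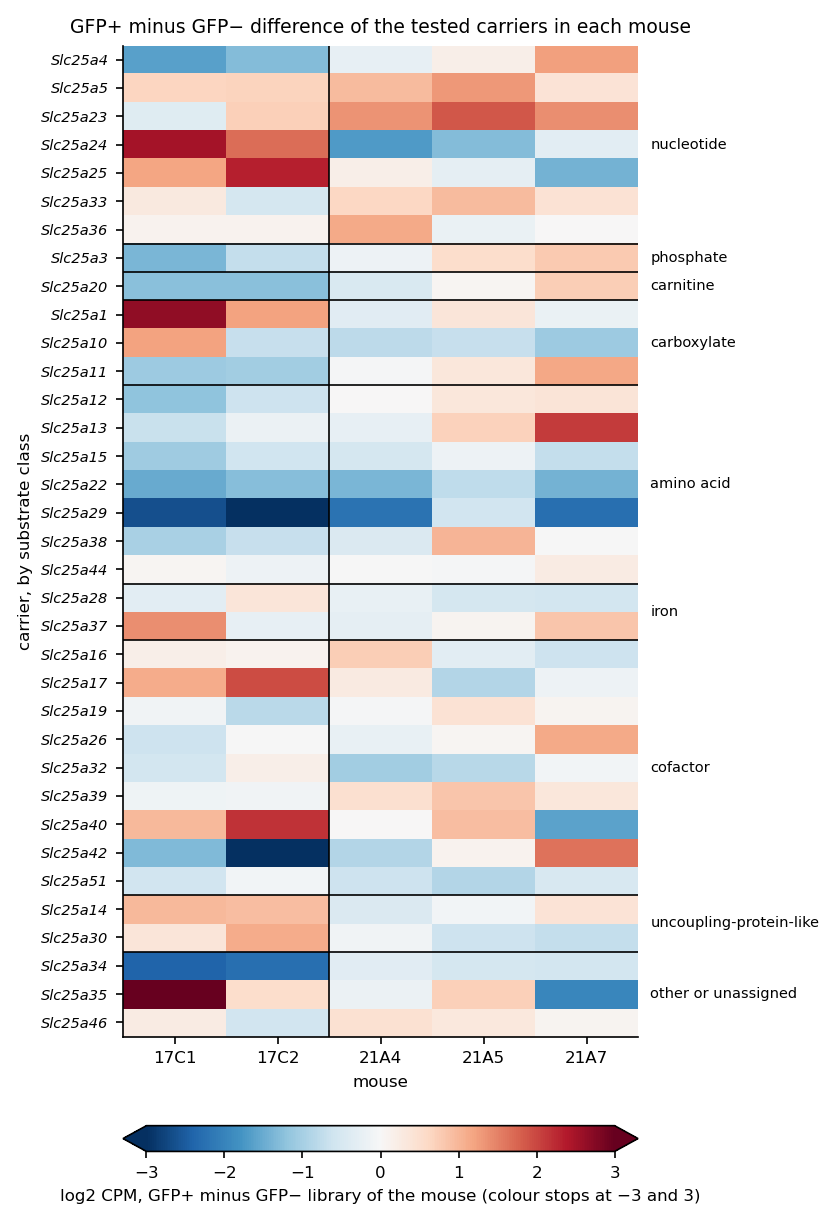
Difference in log2 CPM, GFP+ minus GFP−, of the 35 tested carriers (rows, by substrate class) in each mouse (columns; the vertical line divides the 17C and 21A mice), red where GFP+ was higher and blue where it was lower. Slc25a22, Slc25a29, Slc25a34, Slc25a15 and Slc25a51 are blue and Slc25a5 is red in all 5 mice, and Slc25a24 is red in the 17C mice and blue in the 21A mice.

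Within the 17C mice alone, the ADP/ATP carrier Slc25a4, the phosphate carrier, the carnitine carrier and both Slc25a11 and Slc25a12 of the malate-aspartate shuttle were lower in GFP+ cells. This fit rests on 2 mice, so its SE and p lean on spread estimated across genes and measure the spread between mice poorly. In all, 7 of 34 tested carriers passed as lower and 0 as higher, where 7.52% of all 11107 tested genes passed as lower and 6.08% as higher. They were Slc25a4 (log2 fold change −1.45 ± 0.25, edgeR adjusted p = 0.000339), Slc25a3 (−1.03 ± 0.27, edgeR adjusted p = 0.0130) and Slc25a20 (−1.25 ± 0.27, edgeR adjusted p = 0.00284). The malate-aspartate carriers Slc25a11 (−1.05 ± 0.26, edgeR adjusted p = 0.00801) and Slc25a12 (−0.90 ± 0.27, edgeR adjusted p = 0.0285) were also among them, as was Slc25a34 (−2.32 ± 0.30, edgeR adjusted p = 1.06e-05). The last was Slc25a42, a coenzyme A carrier (−2.58 ± 0.73, edgeR adjusted p = 0.0190), which is named because it passed here and had 2.39 and 0.857 CPM in GFP+ against 6.16 and 13.5 CPM in GFP− libraries, from 22 and 9 against 103 and 172 counts. The other ADP/ATP carrier, Slc25a5 (0.67 ± 0.26, edgeR adjusted p = 0.0998), and the other aspartate/glutamate carrier, Slc25a13 (−0.40 ± 0.27, edgeR adjusted p = 0.395), did not pass. In these mice the cardiomyocyte markers fell by 1.08 and 0.91 on the log2 scale, about as far as Slc25a3 and Slc25a11, and the part of the cells' make-up in these calls was not tested.

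Within the 21A mice 1 of 38 tested carriers passed, Slc25a23, which rose by 1.57 ± 0.23 (edgeR adjusted p = 0.00809), where 6.72% of all 13221 tested genes passed, 2.67% as higher and 4.05% as lower. It did not pass without mouse 21A4, and the 17C value was 0.19 ± 0.34. The cardiomyocyte markers were higher in GFP+ libraries of these mice, by 0.36 to 1.40 on the log2 scale, and the part of this in the Slc25a23 call was not tested. Slc25a4, Slc25a3, Slc25a11, Slc25a12 and Slc25a20 had log2 fold changes of 0.40, 0.41, 0.51, 0.27 and 0.13 in the 21A mice, none of which passed.

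The difference of the GFP effect between the series, 21A minus 17C, passed for 3 of 35 carriers, where 7.62% of all tested genes passed, 3.57% as higher and 4.04% as lower. It was 1.86 ± 0.33 for Slc25a34 (edgeR adjusted p = 0.0234), 1.55 ± 0.40 for Slc25a11 (edgeR adjusted p = 0.0440) and −3.35 ± 0.72 for Slc25a24 (edgeR adjusted p = 0.0317). For Slc25a4, Slc25a3, Slc25a20, Slc25a12 and Slc25a23 it was 1.16 to 1.84 (edgeR adjusted p 0.0616 to 0.0703), so their difference between the series did not pass. The refits that follow have fewer mice or an added term, and the share of all genes that passed in them is not given. Without 17C1 a single 17C mouse is left, and the pooled fit with the covariate called 0 of all genes. A count of 0 in these refits is therefore not read as a result about the carriers. Without mouse 17C1, 21A4 or 21A5, or with a covariate made from mural, endothelial, macrophage and fibroblast markers, 0 of the 35 passed in edgeR, and Slc25a11 also failed to pass without 17C2 or 21A7 and with DESeq2 size factors.

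**Figure D4:**
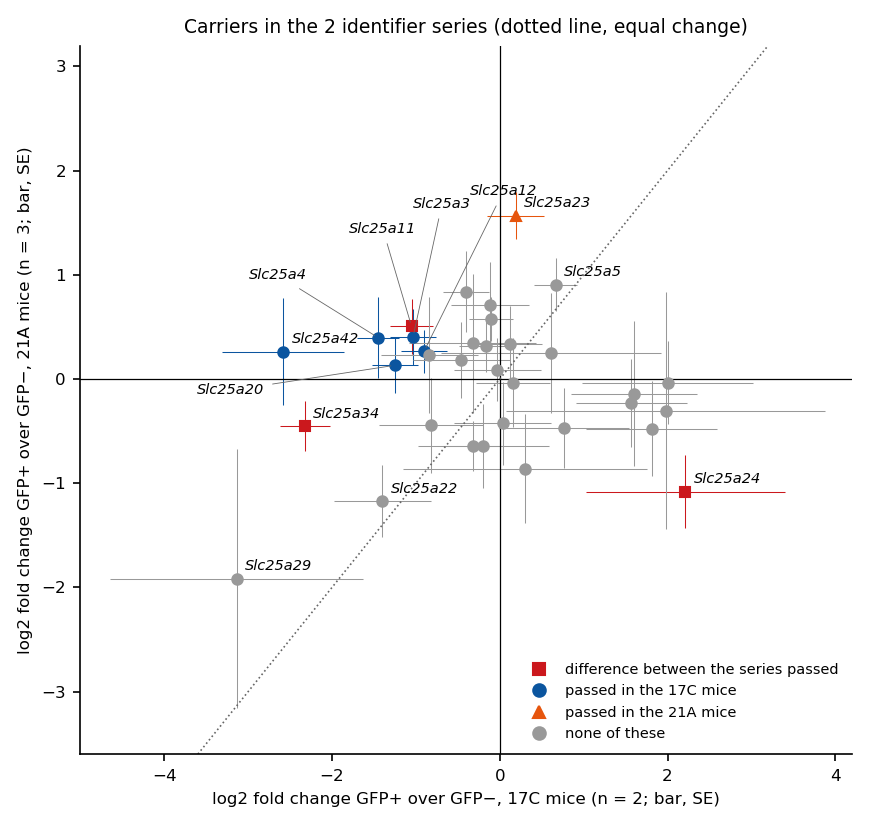
Log2 fold change, GFP+ over GFP−, of the carriers tested in both series, with the 17C mice (n = 2) on the x axis and the 21A mice (n = 3) on the y axis; bars are SE and the dotted line marks equal change. Slc25a4, Slc25a3, Slc25a11, Slc25a12, Slc25a20 and Slc25a42 lie left of 0 and just above 0, Slc25a24 lies at lower right, Slc25a22 and Slc25a29 lie at lower left, below 0 in both series, and red squares mark carriers whose difference between the series passed, of which Slc25a11 and Slc25a34 also passed in the 17C mice.

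Several enzymes that work with these carriers also differed between the series. Of 15 ATP synthase subunits 0 passed over 5 mice (median log2 fold change −0.14), but 13 of 15 passed within the 17C mice as lower (median −1.15) and 0 in the 21A mice (median 0.55), and 10 passed for the difference between the series. Over all genes 7.52% passed as lower in the 17C fit and 7.62% for the difference, and the cardiomyocyte markers moved the same way, at −1.08 and −0.91 in the 17C mice and 0.36 to 1.40 in the 21A mice. Set against those markers in the same library, the log2 differences in 17C1 and 17C2 were −0.04 and −0.02 for Atp5a1, −0.06 and 0.03 for Atp5b, and −0.10 and 0.04 for Mdh1. For Got2 they were −1.03 and −0.27. In the 21A mice these 4 genes lay at −0.81 to −0.08 on that scale. The other ATP synthase subunits, Atp5o among them, were not set on this scale. The part of the cells' make-up in the calls of these enzymes was not tested. Atp5o, a stalk subunit, had a log2 fold change of −1.51 in 17C mice and 0.64 in 21A mice, and its difference of 2.13 passed (edgeR adjusted p = 0.0236). Of 4 malate-aspartate shuttle enzymes, Got2, Mdh1 and Mdh2 passed within the 17C mice as lower (−1.63, −1.01 and −1.30) and for the difference between the series. Crat, Acsl1 and Cpt2 of the carnitine shuttle were called lower in 17C mice (−1.94, −2.21 and −1.24). Ckmt2, the mitochondrial creatine kinase of muscle that takes up ATP released by the ADP/ATP carriers, was at −2.20 in the 17C mice (edgeR adjusted p = 1.24e-05) and 0.27 in the 21A mice. The 13 tested genes that import carriers into the inner membrane, such as Timm22 and Tomm20, had log2 fold changes above 0 over 5 mice, where 5736 of all 12115 genes did, with a median of 0.47, and 0 passed (edgeR adjusted p 0.261 to 0.936). Within the 17C mice 7 of 11 of them were above 0 and within the 21A mice 12 of 13, and 0 passed in either.

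Ckmt1, the other mitochondrial creatine kinase, had 14, 45, 47, 32 and 13 counts in the GFP+ libraries of 17C1, 17C2, 21A4, 21A5 and 21A7, against 0, 1, 1, 4 and 13 counts in their GFP− libraries. Its level was higher in all 5 mice, and its fitted log2 fold change of 4.92 ± 1.00 rests on few counts and did not pass (edgeR adjusted p = 0.0737). It passed as higher within the 17C mice (6.07 ± 1.97, edgeR adjusted p = 0.0433), where its GFP− libraries held 0 and 1 counts, and not within the 21A mice (4.36 ± 1.22, edgeR adjusted p = 0.0655). The transporters of pyruvate, Mpc1 and Mpc2, passed within the 17C mice as lower (−0.82 and −1.06), and Mpc1 passed as higher in the 21A mice (1.22). Ppargc1a, a coactivator of mitochondrial genes, and the fatty acid receptor Ppara had −2.39 and −2.88 in the 17C mice, where both passed, and 0.60 and 0.34 in the 21A mice, where neither did.

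Set against the summed cardiomyocyte markers of the same library, which removes the scaling between libraries, 6 tested carriers were lower in GFP+ cells of all 5 mice, against 6.88% of all tested genes, and 1 was higher, against 1.85%. Slc25a4 was lower on this scale in every mouse, with log2 differences of −0.54, −0.39, −0.61, −0.87 and −0.17 in 17C1, 17C2, 21A4, 21A5 and 21A7 (mean −0.52 ± 0.26, SD). Slc25a20 differed by −0.97 to −0.17 (mean −0.59 ± 0.33) and Slc25a11 by −0.69 to −0.01 (mean −0.29 ± 0.26). The other 3 were Slc25a22 (mean −1.43 ± 1.04), Slc25a29 (−2.45 ± 0.96) and Slc25a34 (−1.38 ± 0.45). Slc25a23 was the 1 carrier higher in all 5 mice (mean 0.84 ± 0.58, from 0.01 to 1.63). Slc25a3, with a mean of −0.35 ± 0.32, was lower in 4 of 5 mice. This scale was chosen with the values known and carries no test.

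**Figure D5:**
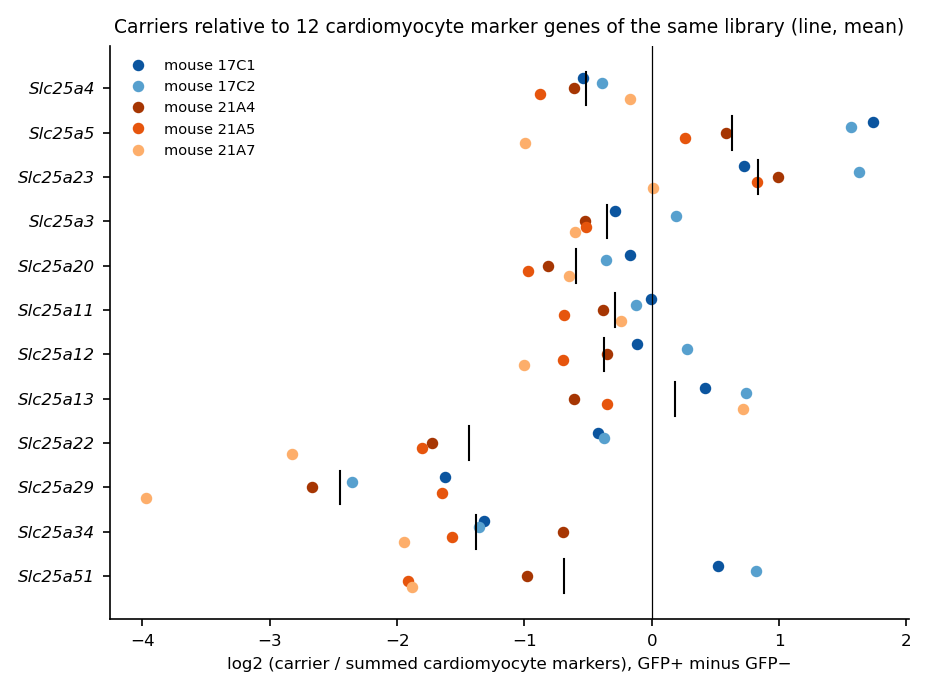
Log2 ratio of 12 carriers to the summed level of 12 cardiomyocyte markers in the same library, GFP+ minus GFP−, 1 point per mouse with a line at the mean. All points of Slc25a4, Slc25a20, Slc25a11, Slc25a22, Slc25a29 and Slc25a34 lie left of 0 and all points of Slc25a23 lie right of it, whereas Slc25a5 is right of 0 in 4 mice and at −0.99 in 21A7.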

How the data were processed

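RNA of sorted cells, 1 GFP+ and 1 GFP− library from each of 5 mice, was amplified with SMARTer chemistry and made into Nextera XT libraries, a kit that does not mark strand, per the labels' protocols. No molecular identifiers are named, so counts are of reads, and replicates are mice. A value after ± is an SD over mice or the SE of a fit. The authors deposited raw read counts, whole numbers, for all libraries in 1 table. Tools named in the submitters' processing notes are STAR 2.7.9a, featureCounts, Subread 2.0.1 and fastp 0.23.1, with GRCm39 as the build. Which annotation, which strand setting and what rule for reads with several matches were used is not given in the sources used here. Exon lengths and overlaps were taken from GENCODE M21 and promoters from RefSeq, both on GRCm38, for genes matched by symbol, and no position was carried over to the counts. Exon length is the union over all isoforms, so levels per kb are lower bounds for genes with long rare isoforms.

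The two-sided quasi-likelihood F-test of edgeR 4.0.16 (R 4.3.3) was run with the mouse as a block, TMM scaling and the filter filterByExpr, at a Benjamini-Hochberg adjusted p under 0.05 over all genes tested. The block comes from the animal identifier in the titles. Each library's deviation from its group mean was correlated across genes with that of the same mouse, giving r = 0.292, 0.397, 0.161, 0.0741 and 0.637 for 17C1, 17C2, 21A4, 21A5 and 21A7. Values between different mice are not given, so these cannot tell a shared mouse from a shared series. SE is the size of the log2 fold change over the root of F, and per-mouse log2 CPM differences use a prior count of 2. Ratios within a library add 0.5 to each count and were tested by exact sign flips over the 5 mice. Each identifier series was also fitted alone, and the difference between them as an interaction. The fits of 1 series hold 2 (17C) or 3 (21A) mice, so their SE and p lean on spread estimated across genes. DESeq2 1.42.0 (Wald test), limma 3.58.1 (voom with sample quality weights), other scalings and filters, an unpaired fit, a score of other cell types and each mouse left out were alternatives. Those of the series fits were chosen after seeing the data. The edgeR fit was tested on simulated counts with known changes before use.

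The carriers, classes, partner lists and ratios were chosen with earlier results of these data known, and partner lists give no independent support. Named were, in each class, the 2 carriers with the smallest p, 10 carriers of general interest and those past a threshold. Slc25a24 and Slc25a42, and the carriers listed by direction in all mice, were named after their values were seen. So were the partner genes given as past a threshold in 1 series, and not every such gene is named.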

Additional observations from a re-analysis of the deposited data

Results flagged for a closer look

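In each group of 5 libraries, a library was looked at more closely when its gap to the nearest other library was over 0.71 of the group's range on the log2 scale. This held for 11 of 62 groups, and chance alone marks about 1 in 20 of independent groups. These groups share the same libraries and are not independent, so the count cannot be set against that rate. In 7 cases it was the GFP+ library of mouse 21A7, which also had 91.2% of its counts in mitochondrially encoded genes and the lowest cardiomyocyte marker level of the GFP+ libraries, and their part in these values was not tested. There log2 CPM was 8.75 for Slc25a4 (10.003 to 10.34 in the other 4 GFP+ libraries), 6.27 for Slc25a3 (7.29 to 7.67), 4.97 for Slc25a11 (5.87 to 6.06), 4.05 for Slc25a12 (5.4 to 5.90) and 3.85 for Slc25a20 (4.65 to 4.78). It was −3.62 for Slc25a29 and for Slc25a35, both at 0 counts in that library. Slc25a14 was at −1.64 in the GFP− library of 17C1, where it had 4 counts.

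Among ratios, log2 Slc25a5/Slc25a4 was −1.71 in the GFP− library of 21A7 (−4.33 to −3.85 in the other 4 GFP− libraries). In the GFP− library of 17C1, log2 Slc25a37/Slc25a28 was −2.98 (−1.43 to −1.19 in the others) and log2 Slc25a20/Slc25a3 was −2.63 (−2.41 to −2.38 in the others).

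The GFP effect differed between the series for Slc25a34 (21A minus 17C, 1.86, edgeR adjusted p = 0.0234), Slc25a11 (1.55, edgeR adjusted p = 0.0440) and Slc25a24 (−3.35, edgeR adjusted p = 0.0317). The log2 ratio Slc25a24/Slc25a23 was higher in GFP+ cells of both 17C mice (mean 1.98) and lower in those of all 3 21A mice (mean −2.66), a difference of −4.64 that was not tested.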

How the results depend on the processing

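The count of all genes called, 104 with the mouse as a block, was 10 in the unpaired fit, 895 with DESeq2, 1163 with limma voom, 818 with no filter, 0 with the non-myocyte score (2254 at an unadjusted p under 0.05) and 0 to 173 with 1 mouse left out. The count of carriers called, 0 with the block and 0 without it, was 4 with DESeq2, 3 with limma voom, 3 with no filter (Slc25a22 and Slc25a34 lower, Slc25a23 higher) and 1 with at least 5 CPM in 5 libraries (Slc25a22). It was 1 with mitochondrial genes removed and library size alone (Slc25a22), a scaling that moved the median of all genes to −0.39, and 0 to 1 with 1 mouse left out (Slc25a23 without 17C1). The count of carriers that differed between the series, 3, was 0 with the non-myocyte score and 0 to 3 with 1 mouse left out, with 0 without 17C1, 21A4 or 21A5, 2 without 21A7 (Slc25a24 and Slc25a34) and 3 without 17C2, where Slc25a23 passed and Slc25a11 did not. The 17C count of 7 was 6 in the unpaired fit, without Slc25a12, and 7 with each other scaling, and a single 17C mouse leaves no spread to test. The 21A count of 1 was 5 with library size alone (median of all genes −0.51; Slc25a23 higher and Slc25a22, Slc25a24, Slc25a34 and Slc25a51 lower), 0 in the unpaired fit and 0 to 3 with 1 mouse left out, with 0 without 21A4 and 3 without 21A7 (Slc25a5, Slc25a23 and Slc25a24). For the refits of the series and of their difference, the share of all genes that passed is not given. The cause was not tested for any of these shifts.

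Of 309 recomputed values of the 23 named carriers, 274 kept direction and call, 13 passed where the main value did not, and 22 changed sign. With the non-myocyte score Slc25a10 was at 0.17 and Slc25a30 at 0.39. In the unpaired fit Slc25a13 was at −0.077 and Slc25a24 at −0.37, and with limma voom Slc25a24 was at −0.85. With library size alone Slc25a13 was at −0.032, Slc25a24 at −0.32 and Slc25a44 at −0.32, and with no filter or a stricter one Slc25a44 was at −0.0042 and −0.012. With 1 mouse left out the ranges that cross 0 were −0.43 to 0.12 for Slc25a3, −0.45 to 0.12 for Slc25a11, −0.38 to 0.037 for Slc25a12, −0.10 to 0.57 for Slc25a13, −0.55 to 0.56 for Slc25a24, −0.27 to 0.18 for Slc25a30, −0.070 to 1.03 for Slc25a35 and −0.030 to 0.078 for Slc25a44. The log2 ratio Slc25a36/Slc25a33 ranged from −0.32 to 0.13 and Slc25a40/Slc25a39 from −0.29 to 0.77. Low counts limit Slc25a14, Slc25a29 and Slc25a35 (under 20 in 6 or 7 of 10 libraries), Slc25a24 (14 and 8 in the GFP− libraries of 17C1 and 17C2) and Slc25a42 (9 in the GFP+ library of 17C2).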
